A study of Mus musculus with 5 samples.

Results

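The genes described here encode the glutathione and thioredoxin antioxidant systems of the mouse embryo. They were chosen by symbol: the cytosolic and microsomal glutathione S-transferases, the glutathione peroxidases, the peroxiredoxins, all symbols that start with Txn, the superoxide dismutases Sod1, Sod2 and Sod3, and Gclc, Gclm, Gss, Gsr, Nqo1 and Glrx. Of 12393 genes with a probe set of 1 symbol, 56 met this rule, and each was read from its brightest probe set. Whole embryos of strain C57BL6J at gestation day 9.5 were profiled on 5 single-colour Affymetrix arrays, 2 labelled Folr1-/- and 3 labelled Folr1+/+, to compare transcripts with and without the folate receptor gene Folr1. The Folr1-/- embryos came from Folr1+/- dams and sires, with folate added to the dams' diet before mating and through pregnancy, and the labels do not say separately what the dams of the Folr1+/+ embryos ate. Decidua, chorion and amnion were dissected away, the labels do not mention the yolk sac, and they do not state how many embryos went into each array.

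Glutathione is a small thiol made in sequence by glutamate-cysteine ligase (subunits Gclc and Gclm) and glutathione synthetase (Gss). Peroxidases spend it to remove hydrogen peroxide and lipid peroxides, transferases attach it to reactive molecules, and glutathione reductase (Gsr) restores it with NADPH. Thioredoxins, kept reduced by thioredoxin reductases, serve peroxiredoxins and other proteins in a parallel system. Many of these genes are known targets of the transcription factor Nrf2 (gene Nfe2l2), which binds antioxidant response elements.

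Several facts of the whole data set bear on every value below. Folr1 itself had signals of 50.2 and 41.8 in Folr1-/- embryos and of 57.0, 50.01 and 40.2 in Folr1+/+ embryos (log2 fold change -0.07 ± 0.20, SE, limma adjusted p = 0.858). The labels do not describe the deleted stretch of the gene, and a probe outside it would check nothing. The female-specific transcript Xist had signals of 419 and 770.4 in Folr1-/- embryos, against 25.0 to 35.7 in Folr1+/+ embryos, and the Y-linked gene Eif2s3y 104 and 3.13, against 300.3 to 372, so that Folr1-/- replicate 1 carried both signals. Sex-linked signals thus differed along with genotype on these arrays and were not separated from it. The part of sex in the results was not tested. Markers of visceral endoderm, the epithelium of the early yolk sac, were higher in all 19 tested cases, and their summed signal was 20058 and 20726 in Folr1-/- embryos, against 3347 to 4537 in Folr1+/+ embryos. The summed signal of placental and decidual markers was 1263 and 1177 in Folr1-/- embryos and 291 to 341 in Folr1+/+ embryos, and all 4 tested were higher (log2 fold changes 0.78 to 2.37). Rhox5 alone had 704 and 736, against 105 to 140, so 1 gene makes up much of this sum. Prl8a2, another gene of this list that was higher, had 143 and 34.6 in Folr1-/- embryos, against 13.6 to 23.2 in Folr1+/+ embryos. Its log2 fold change was 1.44 ± 0.38 (SE, limma adjusted p = 0.024), with the higher signal on Folr1-/- replicate 1. The spongiotrophoblast marker Tpbpa was too dim to test, at 13.8 and 9.13, against 1.96 to 12.8, as were Ascl2 and Cts7. Primitive erythroid markers summed to 237 and 641 in Folr1-/- embryos, against 5524 to 6444 in Folr1+/+ embryos, and 7 of 8 tested were lower. Neural and mesodermal markers of the embryo proper summed to 1019 and 1289, against 3212 to 3439, and 12 of 14 were lower, with the neural crest gene Sox10 at 5.95 and 4.28 in Folr1-/- embryos and 106 to 149 in Folr1+/+ embryos. None of these markers had a signal of exactly 0 on any array. They move with every result given here, and their part in the results was not tested. In whole-embryo RNA, fewer cells of a type and less RNA per cell cannot be told apart.

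Of the 56 genes, 40 were bright enough to test, and 7 of these were higher in Folr1-/- embryos at a limma adjusted p under 0.05: Glrx, Gstm3, Gpx4, Gpx7, Gstm1, Gpx3 and Gsta4. They make up 17.5% of the tested members, where 8.19% of all 7436 tested genes were higher, and 15.0% differed in either direction. None was lower, where 6.79% of all tested genes were. The median log2 fold change was 0.23 over the tested members and -0.02 over all tested genes. The 2 groups did not overlap in 24 members (60%, against 46.7% of all tested genes). In 19 of them Folr1-/- was higher (47.5%, against 22.5%) and in 5 lower (12.5%, against 24.2%). Without Folr1-/- replicate 1 only Glrx and Gpx4 passed, and without Folr1-/- replicate 2 only Glrx and Gstm3.

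**Figure D1:**
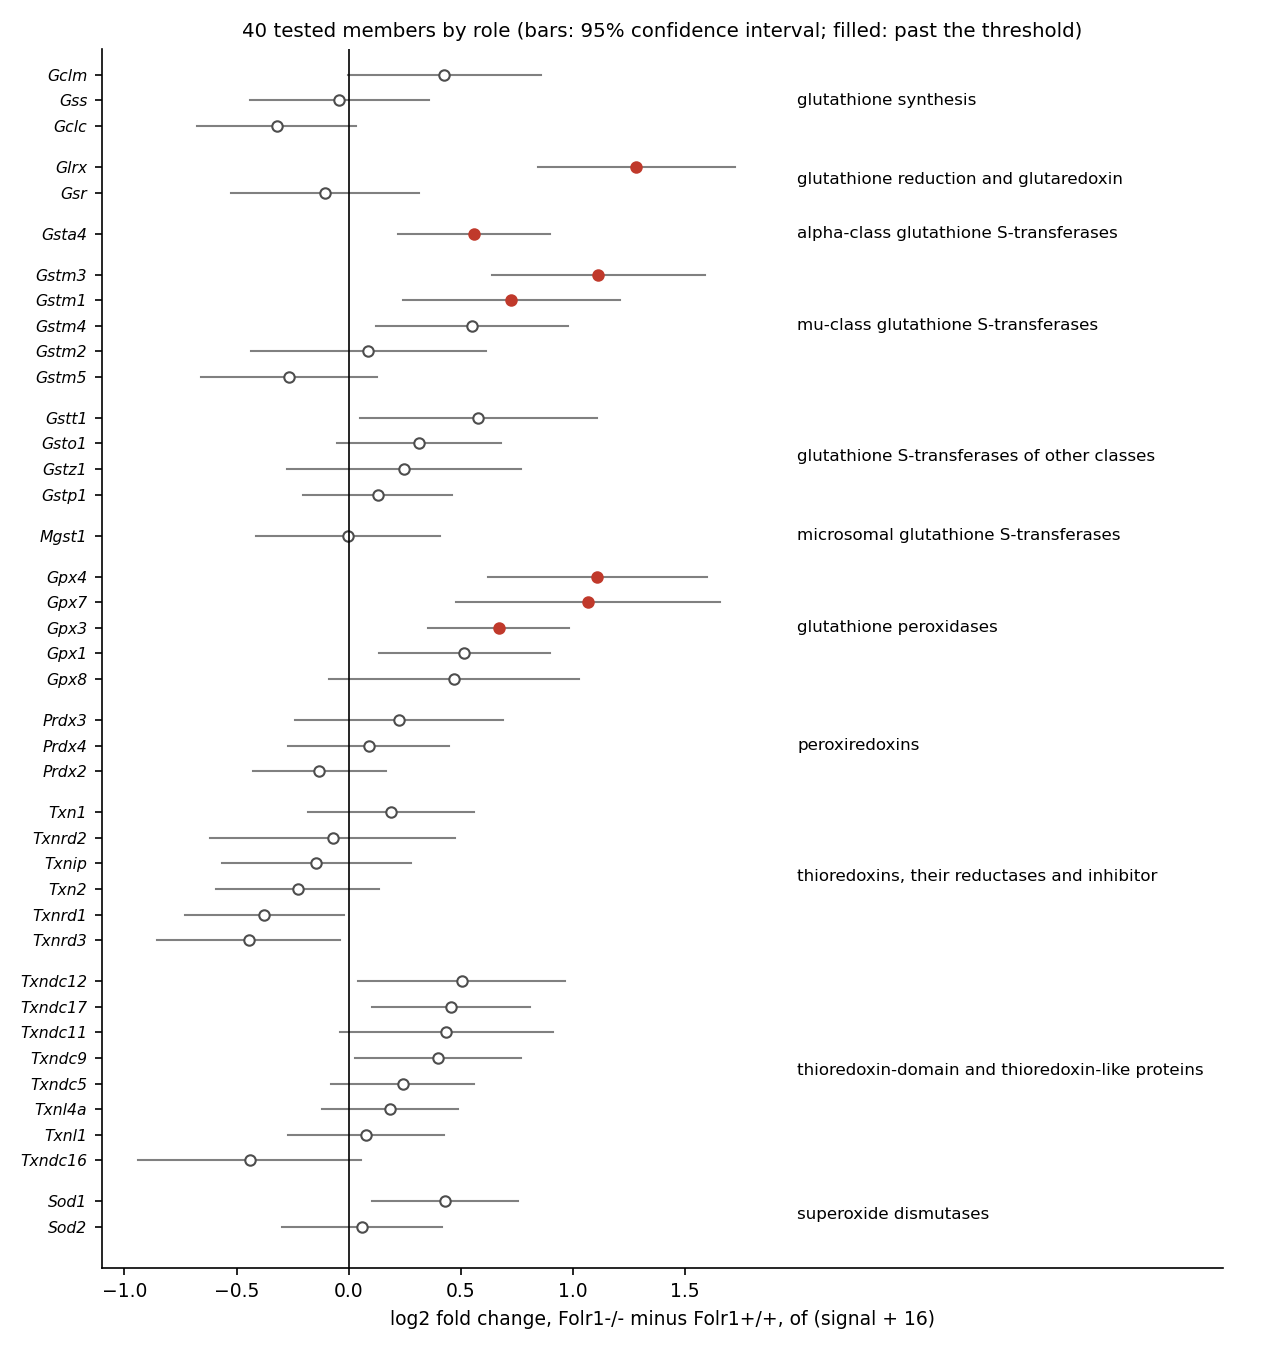
Log2 fold changes (Folr1-/- minus Folr1+/+, of signal + 16) of the 40 tested members, grouped by role, with 95% confidence intervals from the limma fit. Filled points mark the 7 members past the threshold, all right of 0, and the 3 thioredoxin reductases lie left of 0.

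Promoter windows are shown for 4 members. Glrx and Gstm3 had the largest increases, while Gclm and Txnrd1 carry the core of the antioxidant response element and did not pass the test. The 4 do not stand for all members, since most tested members that did not pass lack the core too. Each sequence is the 250 bases before a transcription start, from RefSeq (build GRCm38.p6), written from 5′ to 3′ on the strand of the gene. Capitals mark matches to the core TGACNNNGC or its reverse complement. Txnrd1 has 3 windows, and the only window that holds the core is shown. Glrx has 2 windows, none with the core, and 1 is shown.
Glrx (chr13:75839635-75839884, plus strand): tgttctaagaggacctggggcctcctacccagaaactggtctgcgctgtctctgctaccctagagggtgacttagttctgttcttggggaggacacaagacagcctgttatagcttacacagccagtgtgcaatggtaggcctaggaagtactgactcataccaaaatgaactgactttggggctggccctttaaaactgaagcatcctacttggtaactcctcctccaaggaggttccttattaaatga
Gstm3 (chr3:107969175-107969424, minus strand): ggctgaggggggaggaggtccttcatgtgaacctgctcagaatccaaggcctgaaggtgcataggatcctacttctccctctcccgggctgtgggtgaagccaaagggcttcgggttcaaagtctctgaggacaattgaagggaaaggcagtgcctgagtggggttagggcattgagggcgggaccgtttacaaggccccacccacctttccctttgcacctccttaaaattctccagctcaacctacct
Gclm (chr3:122245307-122245556, plus strand): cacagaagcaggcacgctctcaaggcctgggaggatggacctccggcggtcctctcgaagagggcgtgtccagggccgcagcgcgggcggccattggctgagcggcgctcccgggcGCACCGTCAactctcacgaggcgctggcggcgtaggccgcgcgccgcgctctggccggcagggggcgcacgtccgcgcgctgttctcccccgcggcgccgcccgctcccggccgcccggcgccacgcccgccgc
Txnrd1 (chr10:82858956-82859205, plus strand): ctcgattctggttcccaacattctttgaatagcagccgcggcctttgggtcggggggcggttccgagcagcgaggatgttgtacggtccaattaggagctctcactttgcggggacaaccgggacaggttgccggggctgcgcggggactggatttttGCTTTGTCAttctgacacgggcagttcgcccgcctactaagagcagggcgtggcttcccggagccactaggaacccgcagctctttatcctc
The core was searched on both strands in windows of 250 bases before to 50 after each start. It was found in 13.99% of 27025 genes with a window and in 9 of the 49 members with one (18.4%). Of the 7 members that rose, 6 had a window, and 0 of these 6 held the core. Among tested members that did not pass, 7 of 29 held it, namely Gstm5, Gclm, Mgst1, Txnrd1, Txndc5, Txndc11 and Sod1. In the windows shown, the match begins 134 bases before the start in Gclm and 92 bases before it in Txnrd1. These are matches of letters, and response elements farther from the start lie outside the windows. Beside the share of 13.99% over all genes, 0 of only 6 genes shows nothing particular to the members that rose. The difference from those that did not pass was not tested.

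Glutaredoxin had the largest change of all members, whereas the enzymes that make and recycle glutathione did not pass. Glrx, which removes glutathione from protein thiols, had signals of 236 and 171 in Folr1-/- embryos and of 69.5, 88.3 and 63.5 in Folr1+/+ embryos. Both Folr1-/- arrays lay above all 3 Folr1+/+ arrays, and the log2 fold change was 1.28 ± 0.20 (SE, limma adjusted p = 0.0013). Its call held at all 14 other settings, and with the mean of its probe sets, which include a dim one with signals of 7.83 or less, its fold change was 0.76. Gclm, the modifier subunit of glutamate-cysteine ligase, had 70.9 and 95.001 in Folr1-/- embryos, against 62.8, 57.9 and 50.9 in Folr1+/+ embryos (0.43 ± 0.20, limma adjusted p = 0.168). The catalytic subunit gene Gclc had 159.8 and 189, against 235, 215 and 214 (-0.32 ± 0.16, limma adjusted p = 0.207). The groups were separate for both subunits, in opposite directions, but neither difference passed, and the second Gclc probe set differed by only 0.01. For Gss the signals were 72.5 and 75.4 in Folr1-/- embryos and 69.1 to 85.3 in Folr1+/+ embryos, and the 95% confidence interval of its log2 fold change ran from -0.44 to 0.36. For Gsr they were 78.7 and 60.7, against 67.0 to 80.6, with an interval from -0.52 to 0.31.

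**Figure D2:**
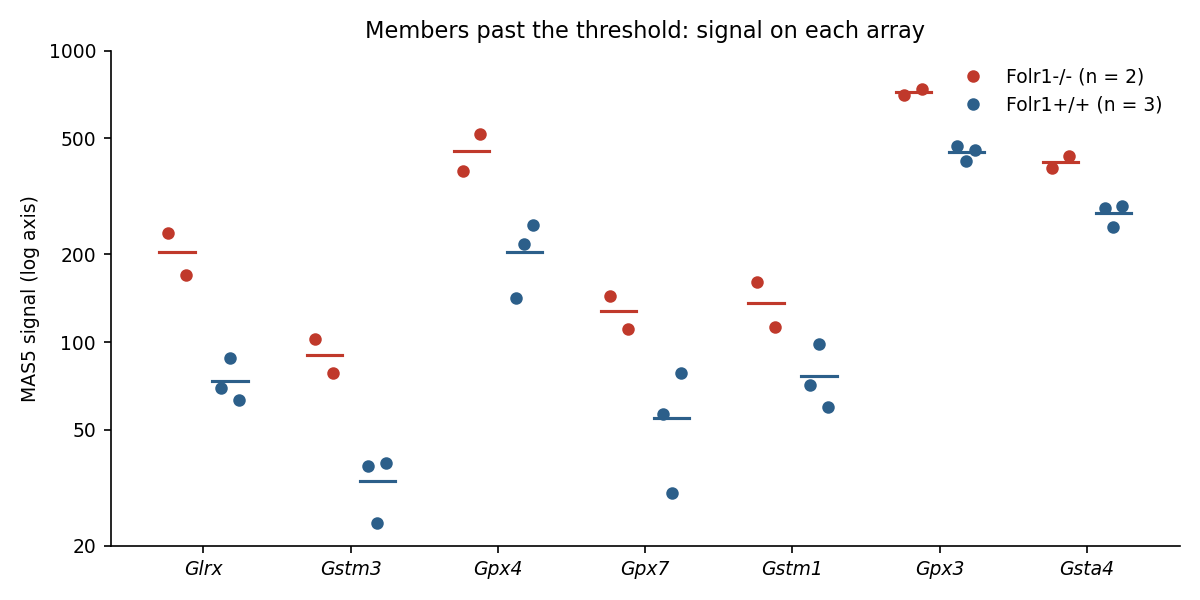
MAS5 signals (log axis) of the 7 members past the threshold, with 1 point per array and a line at each group's mean, Folr1-/- (n = 2) left of Folr1+/+ (n = 3). In each gene both Folr1-/- points lie above every Folr1+/+ point, with the narrowest gap in Gstm1 (113 against 98.5).

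Glutathione peroxidases had positive fold changes in all 5 tested members, and 3 of them rose. Gpx4, which reduces lipid peroxides within membranes and restrains ferroptosis, had signals of 386 and 518 in Folr1-/- embryos and of 142, 217 and 253 in Folr1+/+ embryos (1.11 ± 0.22, limma adjusted p = 0.0065). Its probe set carries the suffix for probes shared with other sequences, and a second, dimmer one gave 72.2 and 132, against 13.2, 48.2 and 67.7, a difference of 1.08. The Gpx4 call was lost without Folr1-/- replicate 2 (0.90, limma adjusted p = 0.0841) and with the mean of its probe sets (1.10, adjusted p = 0.0513). Gpx7, a peroxidase of the endoplasmic reticulum, had 144 and 111 in Folr1-/- embryos, against 56.6, 30.4 and 78.2 in Folr1+/+ embryos (1.07 ± 0.27, limma adjusted p = 0.0205). Its Folr1+/+ arrays spread widely, and the call was lost without either Folr1-/- array (limma adjusted p = 0.209 and 0.0662) and with no filter on dim genes (0.0814). With a pseudocount of 64 the fold change of Gpx7 was 0.70. Gpx3, a secreted peroxidase of plasma, had 706 and 737 in Folr1-/- embryos and 469.8, 419.9 and 455 in Folr1+/+ embryos. The arrays of each group lay close together, with a log2 fold change of 0.67 ± 0.14 (limma adjusted p = 0.0091), and without either Folr1-/- array the limma adjusted p of Gpx3 was 0.0608 and 0.0590. Gpx1, the abundant cytosolic peroxidase, had 1082 and 979, against 741, 576 and 855 (0.52 ± 0.17, limma adjusted p = 0.069), so its groups were separate but the difference did not pass. Gpx8, the other peroxidase of the endoplasmic reticulum, had 180.3 and 92.5 in Folr1-/- embryos and 115, 82.3 and 74.9 in Folr1+/+ embryos, with overlapping groups (0.47 ± 0.26, limma adjusted p = 0.243). Gpx2, Gpx5 and Gpx6, known mainly from gut, epididymis and olfactory epithelium, were too dim to test, with signals of 24.2 or less.

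Among cytosolic glutathione S-transferases, 3 rose, 1 of the alpha class and 2 of the mu class. Gsta4, which conjugates the lipid peroxidation product 4-hydroxynonenal, had signals of 396 and 434 in Folr1-/- embryos and of 288, 249 and 293 in Folr1+/+ embryos (0.56 ± 0.16, limma adjusted p = 0.031). Its call was lost without either Folr1-/- array, without Folr1+/+ replicate 2 or 3, with no filter on dim genes and with the replicate number as a block (limma adjusted p 0.0510 to 0.161), while its fold change stayed between 0.49 and 0.63. Gstm3 had 102 and 78.5 in Folr1-/- embryos, against 37.5, 24.0 and 38.4 in Folr1+/+ embryos (1.11 ± 0.22, limma adjusted p = 0.0054). Without Folr1-/- replicate 1 its adjusted p was 0.103, and with a pseudocount of 64 its fold change was 0.66. Gstm1 had 160.2 and 113, against 71.3, 98.5 and 59.8 (0.72 ± 0.22, limma adjusted p = 0.047), just inside the threshold. It passed in only 5 of 14 other settings, with adjusted p up to 0.371 and fold changes of 0.50 to 0.95. The next members outside the threshold were Gpx1, Sod1, Txndc17 and Gstm4 (limma adjusted p 0.069 to 0.082).

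The mu-class genes form 1 cluster on chromosome 3, in the order Gstm5, Gstm7, Gstm6, Gstm3, Gstm2, Gstm1 and Gstm4, and neighbours in it had unlike values. Gstm4 had signals of 78.7 and 69.4 in Folr1-/- embryos, against 47.1, 38.1 and 51.9 in Folr1+/+ embryos (0.55 ± 0.20, limma adjusted p = 0.082). Gstm2, between Gstm3 and Gstm1, had 30.7 and 32.8, against 29.8, 40.9 and 18.8, with overlapping groups and a log2 fold change of 0.09. Gstm5 had 209 and 203 in Folr1-/- embryos and 211, 306 and 245 in Folr1+/+ embryos (-0.27 ± 0.18, limma adjusted p = 0.346). Gstm6 and Gstm7 were too dim to test. The differences between neighbours were not tested, and sequence is shared within the class. The probe set of Gstm3 carries the suffix for probes that match more than 1 transcript. That of Gstm1 carries the suffix for probes shared with other sequences. How much of each signal belongs to which gene is therefore uncertain. A second Gstm3 probe set, without a suffix, was dim on every array (0.91 and 1.08 in Folr1-/-, 1.11, 1.86 and 6.45 in Folr1+/+ embryos). It differed by -0.16, so the Gstm3 call rests on the shared probe set alone. Of the further Gstm1 probe sets above the filter, that without a suffix differed by 0.91, with separate groups. Another with the same suffix differed by 0.30, with overlapping groups.

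**Figure D3:**
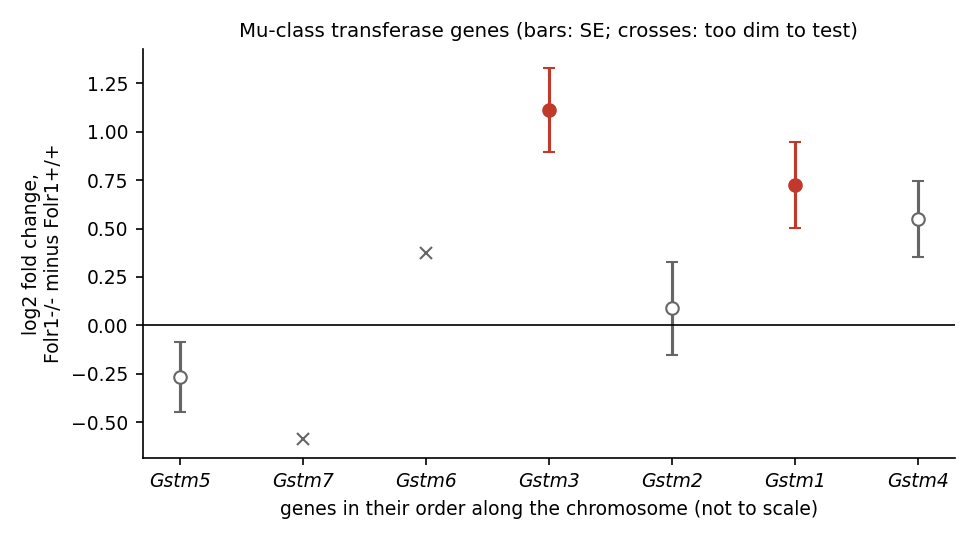
Log2 fold changes (Folr1-/- minus Folr1+/+) of the mu-class transferase genes in their order along chromosome 3, spacing not to scale. Points carry the SE of the limma fit, filled points (Gstm3 and Gstm1) passed the threshold, and crosses mark the untested Gstm7 and Gstm6.

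None of the 4 tested transferases of other classes passed, although all had positive fold changes. Gstt1, a theta-class enzyme, had signals of 52.1 and 38.2 in Folr1-/- embryos, against 15.9, 34.3 and 25.9 in Folr1+/+ embryos (0.58 ± 0.24, limma adjusted p = 0.133). The omega-class gene Gsto1 had 298 and 242, against 233, 214 and 194 (0.31 ± 0.17, limma adjusted p = 0.232). Both groups were separate in these genes, by a small margin. Gstz1, whose enzyme also acts in tyrosine breakdown, and Gstp1, a pi-class enzyme, overlapped between the groups, with log2 fold changes of 0.25 and 0.13. The microsomal enzyme gene Mgst1 had 77.8 and 79.4 in Folr1-/- embryos and 69.3 to 92.9 in Folr1+/+ embryos, with a fold change near 0 and a 95% confidence interval from -0.41 to 0.41. Too dim to test were Gsta2, Gsta3, Gstk1, Gstp3, Gstt2, Gstt3, Mgst2 and Mgst3, with signals of 36.3 or less on every array. Nqo1, a quinone reductase and a widely used Nrf2 target, was also left untested, with 29.3 and 20.1 in Folr1-/- embryos and 18.7, 28.7 and 24.4 in Folr1+/+ embryos.

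In the thioredoxin system proper, none of 6 tested genes passed, and 5 of them had negative fold changes (median -0.19). Txn1, the cytosolic thioredoxin, had signals of 1686 and 1715 in Folr1-/- embryos and of 1191, 1631 and 1703 in Folr1+/+ embryos, with overlapping groups (0.19 ± 0.17, limma adjusted p = 0.489). Txn2, the mitochondrial thioredoxin, had 383 and 298, against 358, 421 and 420.4 (-0.23 ± 0.17, limma adjusted p = 0.389). The cytosolic reductase gene Txnrd1, with the promoter match shown above, had 787 and 798 in Folr1-/- embryos and 879, 1021 and 1231 in Folr1+/+ embryos. Its Folr1-/- arrays lay below all Folr1+/+ arrays, yet the difference did not pass (-0.38 ± 0.16, limma adjusted p = 0.145). Further Txnrd1 probe sets were dim, with signals of 14.4 or less, and differed by 0.23 and 0.13 the other way. With the mean of its probe sets the fold change of Txnrd1 was -0.005. Txnrd3, which joins a glutaredoxin domain to a thioredoxin reductase and is known from testis, had 88.6 and 83.4, against 144, 103 and 126 (-0.45 ± 0.19, limma adjusted p = 0.132). All 3 of its probe sets above the filter were lower in Folr1-/- embryos, by 0.43 to 0.45. The mitochondrial reductase gene Txnrd2 and Txnip, an inhibitor of thioredoxin, overlapped between the groups (-0.07 and -0.14).

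Thioredoxin-domain and thioredoxin-like genes gave 0 calls among 8 tested by limma, although 7 had positive fold changes (median 0.32). Txndc17, a cytosolic thioredoxin-related protein, had signals of 687 and 525 in Folr1-/- embryos and of 436, 458 and 408 in Folr1+/+ embryos (0.46 ± 0.16, limma adjusted p = 0.077). Its 2 other probe sets above the filter differed by 0.47 and 1.00, both with separate groups, while a dim one below it overlapped between the groups (-0.08). Txndc17 passed with median centring. Txndc12, of the endoplasmic reticulum, had 99.7 and 132, against 58.1, 85.5 and 88.7 (0.50 ± 0.21, limma adjusted p = 0.133). Txndc9, a regulator of tubulin folding, had 458 and 573 in Folr1-/- embryos, against 437, 388 and 336 in Folr1+/+ embryos (0.40 ± 0.17, limma adjusted p = 0.137). The disulphide isomerase Txndc5 and the endoplasmic reticulum protein Txndc11 had fold changes of 0.24 and 0.44, with separate groups in each. Txnl1, a proteasome-associated protein, had 0.08, and Txnl4a, a spliceosome component despite its name, 0.18. Txndc16 was the exception, with 36.0 and 32.7, against 66.5, 36.9 and 57.1 (-0.44 ± 0.23, limma adjusted p = 0.216). Txndc8, known from testis, was too dim to test.

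Peroxiredoxins and superoxide dismutases did not pass either, and their probe sets disagreed. Prdx2, a peroxiredoxin abundant in red blood cells, had signals of 2023 and 2193 in Folr1-/- embryos and of 2179, 2440.0 and 2312 in Folr1+/+ embryos (-0.13 ± 0.14, limma adjusted p = 0.561). A dimmer Prdx2 probe set had 862 and 1039, against 435, 599.8 and 626, a difference of 0.77 the other way with separate groups. The mitochondrial Prdx3 and the endoplasmic reticulum enzyme Prdx4, the only member on the X chromosome among those tested, had fold changes of 0.22 and 0.09 with overlapping groups. Sod1, the cytosolic copper-zinc dismutase, had 3551 and 3153 in Folr1-/- embryos and 2475, 2797 and 2200.3 in Folr1+/+ embryos (0.43 ± 0.15, limma adjusted p = 0.074). The groups were separate, and Sod1 passed with quantile normalization, with median centring and without Folr1+/+ replicate 2. A second, dim Sod1 probe set had 56.9 and 62.8, against 66.2, 77.8 and 103, also separate but lower by 0.36. With the mean of its probe sets the fold change of Sod1 was only 0.04. Sod2, the mitochondrial manganese dismutase, had 441 and 382, against 445, 343 and 397 (0.06 ± 0.16, limma adjusted p = 0.839), while its dimmest probe set was lower in Folr1-/- embryos (20.4 and 22.0, against 34.7 to 41.1). Extracellular Sod3 was too dim to test.

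Over all members with more than 1 probe set above the filter, 6 of 16 had the same sign in each. These were Gpx4, Gstm1, Gsto1, Txndc17, Txndc9 and Txnrd3. Values of the others, Sod1, Prdx2, Txn1 and Gclc among them, depend on which probe set is read.

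**Figure D4:**
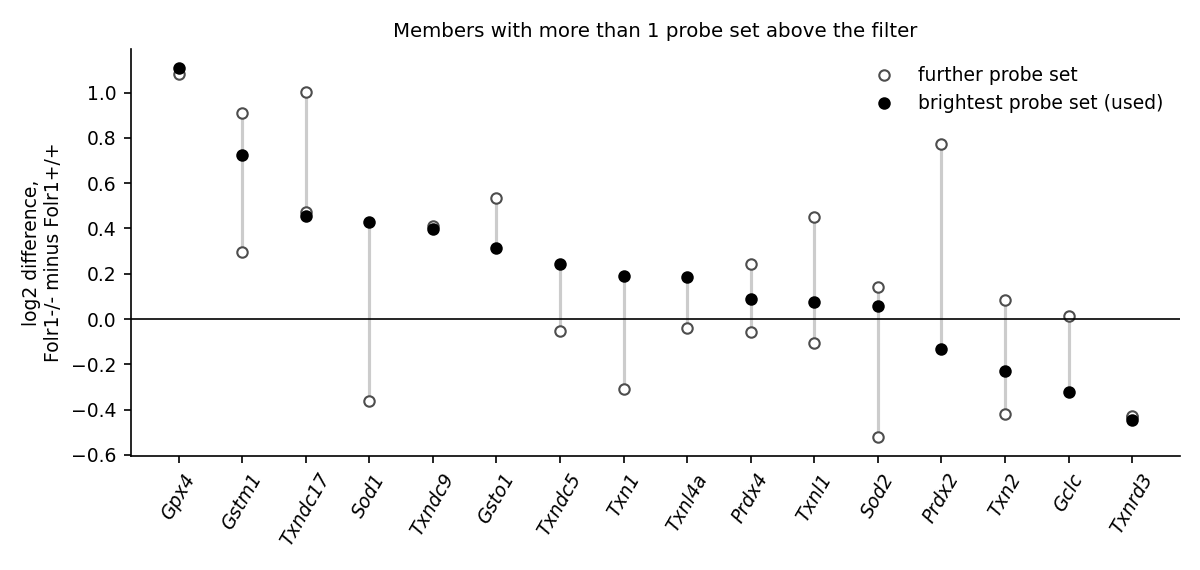
Log2 differences (Folr1-/- minus Folr1+/+) of every probe set above the filter for the 16 members with more than 1. Filled points are the brightest probe sets, which stand for the gene elsewhere, and open points further ones. Lines cross 0 in 10 genes, and the widest are those of Prdx2, Sod1 and Sod2.

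Grouped by further traits, selenocysteine enzymes had fold changes of both signs, split along symbol families by which they were chosen. The peroxidases Gpx1, Gpx3 and Gpx4 had log2 fold changes of 0.52 to 1.11, and the reductases Txnrd1, Txnrd2 and Txnrd3 of -0.45 to -0.07. None of the reductases passed, and Txnrd2 overlapped between the groups. The 4 mitochondrial members Prdx3, Txn2, Txnrd2 and Sod2 lay between -0.23 and 0.22 by their brightest probe sets, and none passed. A further probe set above the filter differed by -0.42 in Txn2 and by -0.52 in Sod2, both with separate groups. Another of each gene differed by 0.09 and 0.14, with overlapping groups. Of 7 members of the endoplasmic reticulum (Gpx7, Gpx8, Prdx4, Txndc5, Txndc11, Txndc12 and Txndc16), 1 rose, and the values ran from -0.44 to 1.07. These sets were formed from known roles, and the differences between them were not tested.

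Of the genes that feed or accompany these systems, Glul, the metallothionein genes Mt1 and Mt2, Ccs and Selenop had the largest increases and Idh1 was the only one that fell. The counts of each list stand against 8.19% of all tested genes higher and 6.79% lower, and nothing particular to a list is read from them. Of 8 tested genes listed under glutathione precursor supply, whether they make or use a precursor, 2 rose, 0 fell and 6 did not pass (median 0.19). Glul, which makes glutamine from glutamate, had signals of 541 and 461 in Folr1-/- embryos, against 171, 191 and 209 in Folr1+/+ embryos (1.33 ± 0.16, limma adjusted p = 0.00028). Cndp2, a peptidase that splits cysteinylglycine, had 2378 and 1760.3, against 1257, 1266 and 1099 (0.76 ± 0.16, limma adjusted p = 0.0086), and without Folr1-/- replicate 1 its adjusted p was 0.124. The cystine transporter gene Slc7a11 was too dim to test. Of 12 tested genes of NADPH supply, 0 rose and 1 fell, Idh1, the cytosolic isocitrate dehydrogenase, with 523 and 385 in Folr1-/- embryos and 611, 701 and 791 in Folr1+/+ embryos (-0.62 ± 0.18, limma adjusted p = 0.035). Its call held in 7 of 14 other settings, and was lost among others without Folr1-/- replicate 2 and without Folr1+/+ replicate 2 or 3.

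Of 16 tested Nrf2 regulators and further targets, 2 rose and 0 fell (median 0.27). Nfe2l2, the gene of Nrf2, had signals of 332 and 357 in Folr1-/- embryos and of 202, 242 and 224 in Folr1+/+ embryos (0.60 ± 0.16, limma adjusted p = 0.025). Its call was lost without either Folr1-/- array, without Folr1+/+ replicate 1 or 3 and with the replicate block, with adjusted p up to 0.137. Akr1b8, an aldo-keto reductase, had 150.01 and 128, against 60.8, 72.2 and 72.8 (0.87 ± 0.18, limma adjusted p = 0.0075), and without Folr1-/- replicate 1 its adjusted p was 0.113. Keap1, which holds Nrf2 back, and Srxn1, which repairs overoxidised peroxiredoxins, had fold changes of -0.12 each and overlapping groups. Hmox1, a heme oxygenase and a common Nrf2 target, was too dim to test, with 51.8 and 25.0 in Folr1-/- embryos and 22.4 to 28.1 in Folr1+/+ embryos.

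Of 15 tested genes of other peroxide and metal defence, 3 rose and 0 fell (median 0.03). The metallothionein genes, whose products bind zinc and copper, were among them. Mt1 had signals of 377 and 344 in Folr1-/- embryos and of 66.7, 122 and 109.6 in Folr1+/+ embryos (1.74 ± 0.22, limma adjusted p = 0.00031), and with the mean of its probe sets 0.76. Mt2 had 325 and 299.9, against 109.8, 125 and 101 (1.36 ± 0.17, limma adjusted p = 0.00028). Ccs, the chaperone that loads copper into Sod1, had 325 and 222 in Folr1-/- embryos, against 122, 99.9 and 117 in Folr1+/+ embryos (1.15 ± 0.19, limma adjusted p = 0.0021). Without Folr1-/- replicate 1 the adjusted p of Ccs was 0.0556. Catalase (Cat) overlapped between the groups, at 0.02.

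Of 13 tested selenoproteins and genes of their synthesis, 2 rose and 0 fell (median 0.16). Selenop, a secreted selenium carrier, had signals of 1114 and 1202 in Folr1-/- embryos and of 578, 470.3 and 603 in Folr1+/+ embryos (1.06 ± 0.16, limma adjusted p = 0.00085). Selenos, a protein of endoplasmic reticulum quality control, had 678 and 530.2, against 291, 381 and 360.4 (0.78 ± 0.17, limma adjusted p = 0.011), and without Folr1-/- replicate 1 its adjusted p was 0.141. The enzymes that build selenocysteine, such as Sephs2 and Pstk, did not pass.

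**Figure D5:**
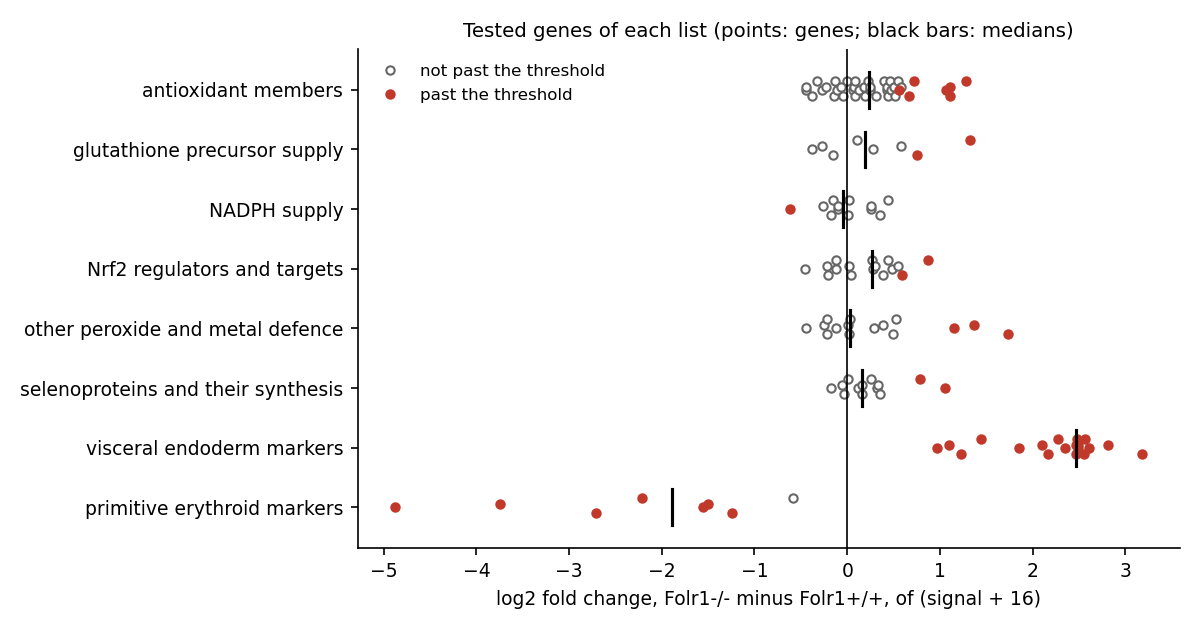
Log2 fold changes (Folr1-/- minus Folr1+/+) of the tested members, of 5 lists of related redox genes and of 2 marker lists, with 1 point per gene, filled where past the threshold, and a bar at each median. The medians of the redox lists lie between -0.04 and 0.27, that of the visceral endoderm markers at 2.46 and that of the primitive erythroid markers at -1.89.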

How the data were processed

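RNA of 5 whole-embryo samples, amplified in 2 rounds per the labels' protocols, was measured on Affymetrix 430A arrays. The intensity of each probe set was used as deposited, a linear MAS5 signal according to the tool named in the submitters' processing notes. Its mean, trimmed by 2% at each end, was 150.06 or 150.07 on every array, and array medians were 33.0 to 38.3. The Actb 3'/5' signal ratio was 30.5 and 22.8 on Folr1-/- arrays and 21.1, 39.5 and 29.1 on Folr1+/+ arrays. Precision is limited by having only 5 arrays.

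Of 22690 probe sets, 64 were controls. The platform table paired 20380 with a single symbol and 691 with several, and did not list 1555. The 6 with several symbols of which at least 1 meets the rule, those of Prdx1 among them, were not used. A gene was read from the probe set whose log2(signal + 16) averaged highest, 4957 genes under the 40th percentile of that mean were left out, and 7436 were tested with limma 3.58.1 (R 4.3.3; eBayes with trend, 2-sided, Benjamini-Hochberg over all tested genes, threshold 0.05). Fold changes are on the log2(signal + 16) scale, Folr1-/- minus Folr1+/+, and understate the change of dim genes. The labels call replicates biological, and p-values measure only the spread between these arrays. Full values are given for members past the threshold, for up to 2 further members per role with the smallest p, and for up to 4 genes past the threshold per related list. Other members with full values were chosen after these were seen, and members and lists with earlier results of these data known. The procedure was tested on simulated data. Gene order and promoters came from RefSeq tables (GRCm38.p6), in which 49 of 56 members had a promoter window. Alternatives changed the pseudocount, filter, scaling, trend, probe set rule, replicate block and arrays included.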

Additional observations from a re-analysis of the deposited data

How the results depend on the processing

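With 14 other settings, no direction of a call was reversed. Among the single genes followed, 57 calls were lost and 17 gained, counted per gene and setting, so that a gene can count more than once. The number of members higher in Folr1-/- embryos was 7, and 4 with no filter on dim genes (of 56 tested), while it was 2 to 7 when 1 array was left out and 5 to 9 at the other settings. The number lower was 0 at every setting. Their median of 0.23 was 0.31 with median centring, 0.18 with the mean of probe sets, and 0.18 to 0.28 when 1 array was left out. Over all genes, 1114 passed, and 369 to 1007 when 1 array was left out, with the lowest count, 369, without Folr1-/- replicate 1, then 636 without Folr1+/+ replicate 3, and 664 without Folr1-/- replicate 2. With no filter on dim genes it was 747. With median centring 67.0% of the genes that passed were higher in Folr1-/- embryos, in place of 54.7%. The causes were not tested, except that settings with fewer arrays have fewer residual degrees of freedom, and a single Folr1-/- array is there assumed to vary like the Folr1+/+ arrays. Deviations of arrays with the same replicate number correlated at 0.02 and -0.06 across 7436 genes, so the numbers were not taken as pairs. With the replicate number as a block, 899 genes and 6 members passed, with Gpx1 gained and Gsta4 and Gstm1 lost. No Folr1-/- array has replicate number 3, so the block takes up Folr1+/+ replicate 3. The fold changes of this fit are therefore those without that array (member median 0.26 in both), and these settings are not separate checks of a fold change. Dim signals limit what 16 members can show.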
